A study of Rattus norvegicus with 18 samples.

Results

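The kinesin motor genes were examined in 3′ mRNA sequencing of rat T-MBP cells, a CD4+ T cell line specific for myelin basic protein, recovered on day 3 after transfer into Lewis rats. Members were the genes whose symbol begins with Kif or Kifc followed by a number. This rule found 41 of the 32882 genes listed in each of 3 tables, and by name they fell into 12 mitotic kinesins, 15 transport kinesins and 14 others. *Cenpe*, a kinesin of the kinetochore with a symbol of another form, was counted among the partners of the mitotic kinesins.

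The 18 libraries formed 6 groups of 3. *Ets1*-KO cells and control cells labelled WT came from the spinal cord parenchyma, another such pair of groups came from the spleen, and *Grk2*-KO cells came from the spleen with a control group of their own. All cells had been expanded in culture and restimulated with myelin basic protein on irradiated thymocytes before transfer. Control cells carried a non-targeting (NT) guide RNA and blue fluorescent protein and KO cells carried green fluorescent protein, and the cells were sorted on these colours, so that genotype and fluorophore cannot be told apart. The KO cells were edited populations, and the age of the rats is not given in the labels. The study describes its replicates as biological and the parenchyma cells of both genotypes as taken from rats that had received KO and control cells together. The labels number the replicates without naming the animals.

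Kinesins are motors that use ATP to move along microtubules or to shorten them. The mitotic kinesins build the spindle, move chromosomes and separate the daughter cells, and in many cell types their mRNAs accumulate in the G2 and M phases of the cell cycle. Transport kinesins carry vesicles, organelles and ciliary components, and many of them are made in cells that do not divide.

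Between 898092 and 2248258 reads per library were counted on genes, and the *Ets1*-KO spleen libraries were deeper (from 1909862) than their controls (up to 1213485). Replicate 3 of the *Ets1*-KO spleen libraries stood apart, with 21.0% of its reads on mitochondrial genes against 14.1% and 14.9% in the others of its group, so spleen results are also given without replicate 3. Of the 10 T cell markers 9 were listed, all 9 were tested in each table and none was called by limma at an adjusted p under 0.05, with 3 of the 9 at an unadjusted p under 0.05 in the parenchyma and 1 of the 9 in each spleen table. In the parenchyma these were *Cd2*, higher in *Ets1*-KO cells, and *Cd4* and *Cd5*, lower. Over all genes tested 1186 of 7002 were at that level in the parenchyma, and 984 of 6979 and 728 of 6985 in the *Ets1* and *Grk2* spleen tables. In the spleen edgeR and DESeq2 called 0 of the T cell markers too. *Cd4* itself was low, between 6.45 and 49.1 normalized counts. In the parenchyma it was lower in all *Ets1*-KO than in all control libraries, as were 10.5% of all genes. Its log2 fold change there was −0.60 (limma adjusted p = 0.121). *Cd8b* was at 0 in all libraries, and *Cd8a*, at most 10.1, was higher in all *Ets1*-KO than in all control parenchyma libraries. Summed B cell markers were at most 15.3 and summed central nervous system markers at most 13.8 in any library. The 12 myeloid markers summed to between 27.3 and 54.1 in control and between 47.5 and 67.7 in *Ets1*-KO parenchyma libraries, of which *Lyz2* made up between 16.9 and 47.6, with *Mrc1* and *Cd163* at 0, and to at most 11.6 in the spleen. The part of these differences in the kinesin results was not tested. *Ets1* mRNA did not pass the test in either tissue (log2 fold change 0.09 in the parenchyma and −0.06 in the spleen), and reads from 3′ ends do not show an edit elsewhere in the transcript. *Grk2* mRNA was lower in *Grk2*-KO cells, by −1.22 on the log2 scale (adjusted p = 1.76e-12 from limma).

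Promoter sequence is shown for the 6 kinesins that were called in the parenchyma, because it shows whether the genes that moved together share letters near their starts. Each line holds 200 bases before the gene start and the first 20 bases after it, read 5′ to 3′ on the gene strand, from RefSeq on GRCr8. Capitals mark 3 motifs on either strand. They are TTTGAA, the core of the cell cycle genes homology region (CHR) that cell cycle repressor complexes bind, CCAAT, the box bound by NF-Y, and CCGGAA, a core of ETS factor sites. TTCGAA, a variant of the CHR, was also searched.
Kif11, chr1:244536667-244536886, + strand: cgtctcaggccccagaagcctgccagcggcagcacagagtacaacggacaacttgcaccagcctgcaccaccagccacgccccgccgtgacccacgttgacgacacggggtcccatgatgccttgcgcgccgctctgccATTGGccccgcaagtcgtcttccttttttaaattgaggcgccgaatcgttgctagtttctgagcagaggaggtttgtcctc
Kif15, chr8:131479204-131479423, + strand: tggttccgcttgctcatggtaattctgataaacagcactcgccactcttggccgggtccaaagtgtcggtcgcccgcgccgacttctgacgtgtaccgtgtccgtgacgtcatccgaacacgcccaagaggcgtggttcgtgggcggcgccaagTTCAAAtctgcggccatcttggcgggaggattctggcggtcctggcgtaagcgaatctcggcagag
Kif20b, chr1:241840816-241841035, + strand: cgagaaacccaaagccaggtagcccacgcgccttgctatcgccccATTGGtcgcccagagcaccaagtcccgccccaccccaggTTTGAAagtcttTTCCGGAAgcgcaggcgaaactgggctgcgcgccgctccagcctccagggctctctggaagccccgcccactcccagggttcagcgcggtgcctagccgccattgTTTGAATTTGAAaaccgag
Kif4a, chrX:69761683-69761902, + strand: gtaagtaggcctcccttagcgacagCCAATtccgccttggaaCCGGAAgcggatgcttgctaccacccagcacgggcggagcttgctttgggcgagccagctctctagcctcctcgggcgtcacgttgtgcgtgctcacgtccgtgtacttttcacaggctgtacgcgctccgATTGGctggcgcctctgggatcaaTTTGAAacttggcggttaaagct
Kifc1, chr20:5000729-5000948, + strand: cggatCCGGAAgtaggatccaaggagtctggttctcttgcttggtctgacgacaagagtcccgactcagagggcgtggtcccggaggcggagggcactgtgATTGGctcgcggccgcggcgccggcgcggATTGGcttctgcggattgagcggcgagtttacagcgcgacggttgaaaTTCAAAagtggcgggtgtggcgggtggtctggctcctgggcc
Kif3a, chr10:38226570-38226789, + strand: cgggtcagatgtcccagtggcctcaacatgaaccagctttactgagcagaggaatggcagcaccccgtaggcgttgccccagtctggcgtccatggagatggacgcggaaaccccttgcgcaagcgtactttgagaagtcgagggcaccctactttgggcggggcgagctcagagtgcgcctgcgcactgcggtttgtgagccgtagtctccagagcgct

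In these letters *Kif15*, *Kif20b*, *Kif4a* and *Kifc1* hold TTTGAA on either strand, at −46, −116, −3 and −22 for the copy farthest upstream within the stretch shown, counted to the first base of the match. *Kif20b* has further copies at 2 and 8, after its start, and *Kif15* has another at −249, outside the letters shown. *Kif11* holds only CCAAT, at −61 on the opposite strand, and *Kif3a*, the transport kinesin of the set, holds none of the motifs. The 2 CCGGAA matches of *Kif20b*, on opposite strands, overlap in TTCCGGAA.

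A window of 300 bases, 250 before to 50 after the start, was listed for 31 of the 41 members. TTTGAA was in 6 of 11 mitotic kinesin windows, in 0 of 11 transport kinesin windows and in 18.3% of all 33469 windows. CCAAT was in 7 of 11 mitotic, 3 of 11 transport and 37.5% of all windows. CCGGAA was in 7 of 11 mitotic, 1 of 11 transport and 15% of all windows, and TTCGAA in none of the mitotic or transport and 1.69% of all windows. TTTGAA and CCAAT occurred together in 5 of 11 mitotic windows and in 7.41% of all windows. Mitotic kinesins tested in the parenchyma and not called held these motifs too. TTTGAA was in *Kif22* at −16 and *Kif23* at −79, and CCGGAA in *Kif18a* at −88 and *Kif22* at −123 and −74. The letters are therefore not particular to the called genes. A match is a description of the letters and not of a bound site.

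**Figure D1:**
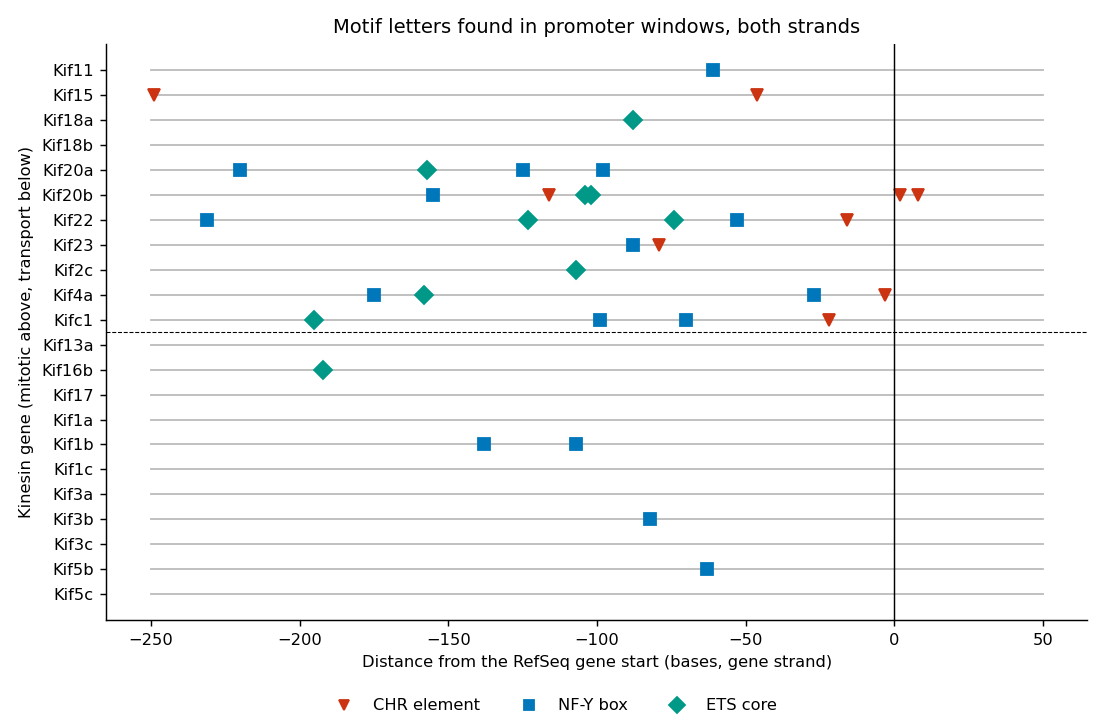
Positions of the 3 motifs in the promoter windows of 11 mitotic (above the dashed line) and 11 transport kinesins (below), with distance from the gene start in bases on the horizontal axis and the start at 0. The CHR element marks TTTGAA, the NF-Y box marks CCAAT and the ETS core marks CCGGAA, each on either strand, and 6 mitotic and 0 transport kinesins carry a CHR element.

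In the parenchyma, *Ets1*-KO cells had less mRNA of the spindle motors *Kif11*, *Kif15* and *Kifc1*, of the chromosome motor *Kif4a* and of the cytokinesis kinesin *Kif20b*, and more of *Kif3a*, a subunit of the heterotrimeric kinesin-2. The 5 falls were between 1.15 and 2.02 on the log2 scale, and *Kif3a* rose by 0.49. No other kinesin passed the test. All values are normalized counts, that is reads per gene divided by the size factor of the library. Fold changes are on the scale of log2(normalized count + 1), which understates the change of low genes. In the main parenchyma fit limma took the variance of every gene from the trend over expression level (infinite prior degrees of freedom). The standard errors and p values of that fit therefore hold nothing of the spread between a gene's own replicates.

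*Kif11* is the bipolar motor that pushes the spindle poles apart. Its normalized count was 25.2, 22.6 and 32.4 in the NT libraries and 9.1, 14.2 and 11.3 in the *Ets1*-KO libraries, in the order of replicates 1 to 3 as in all such lists. All KO libraries were below all controls. The log2 fold change was −1.15 (standard error, SE, 0.32; limma adjusted p = 0.00984), with adjusted p values of 0.127 without replicate 1, 0.175 without replicate 3 and 0.0638 with no filter on low counts.

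*Kif15* is a spindle motor that can take over from *Kif11*. Its counts were 34.6, 27.3 and 28.5 in NT and 7.08, 17.2 and 4.53 in *Ets1*-KO libraries, which did not overlap, although replicate 2 of the KO group was well above the others. Its log2 fold change was −1.73 (SE 0.33, limma adjusted p = 1.86e-05).

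*Kifc1* moves towards microtubule minus ends and gathers them at the spindle poles. It had the most negative log2 fold change among the kinesins tested in the parenchyma, −2.02 (SE 0.43, limma adjusted p = 0.000218). Its counts were 15.9, 31 and 12.8 in NT and 4.04, 4.04 and 3.4 in *Ets1*-KO libraries, so that the KO libraries were close to each other and the controls spread more. Without replicate 2 the gene fell below the count minimum.

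*Kif4a*, which binds chromosome arms and the midzone of the spindle, had counts of 23.4, 21.6 and 21.6 in NT and 9.1, 11.1 and 4.53 in *Ets1*-KO libraries. The groups lay apart, and the 3 controls differed little. Its log2 fold change was −1.40 (SE 0.36, limma adjusted p = 0.00416), with an adjusted p of 0.154 without replicate 3.

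*Kif20b*, which acts in cytokinesis and abscission, had 31.8, 33.9 and 24.6 in NT and 9.1, 15.2 and 4.53 in *Ets1*-KO libraries, again without overlap. Its log2 fold change was −1.67 (SE 0.33, limma adjusted p = 3.58e-05). *Kif15*, *Kif20b* and *Kifc1* passed under every alternative that kept the variance trend and could test them, and the trend itself mattered for all the kinesins. Without it the adjusted p values of the 6 called genes were between 0.167 and 0.308.

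Of the 12 mitotic kinesins 8 passed the minimum of 10 normalized counts, and 5 of these 8 were called lower, where 2.96% of all 7002 genes tested were. The KO means of *Kif15*, *Kif20b*, *Kif4a* and *Kifc1* were 9.6, 9.6, 8.25 and 3.83, so that these genes reached the minimum through their control libraries, and the count of 5 of 8 is a description of the genes that passed. With no filter, the same 4 genes were the ones called among all 12. The groups lay apart in the same 5 genes, against 10.5% of all genes in that direction. The median log2 fold change of the 8 was −1.27, beside −0.03 over all genes tested, and the negative sign of all 8 is a description of genes measured in the same cells. Fewer cells in division and less mRNA per dividing cell cannot be told apart in bulk RNA.

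*Kif18a*, *Kif22* and *Kif23* were the mitotic kinesins that were tested and did not pass. *Kif23*, the motor of the centralspindlin complex in cytokinesis, had 75.7, 80.9 and 67.8 in NT and 72.8, 65.7 and 52.1 in *Ets1*-KO libraries, with a log2 fold change of −0.24 (SE 0.17, limma adjusted p = 0.501). Its groups overlapped, and each KO library was below the control of the same number. *Kif22*, a chromosome arm motor, had −0.40 (SE 0.40) and *Kif18a*, which limits the length of kinetochore microtubules, had −0.09 (SE 0.41), and the groups overlapped in both. *Kif22* lay between 6.8 and 16.9 and *Kif18a* between 7.08 and 13.2 normalized counts in these libraries.

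The other 4 mitotic kinesins, *Kif14*, *Kif18b*, *Kif20a* and *Kif2c*, did not reach the minimum in the parenchyma and were not tested in the main fit. *Kif18b*, which controls astral microtubule length, was at 9.34, 7.52 and 9.83 in NT and at 3.03, 2.02 and 0 in *Ets1*-KO libraries. *Kif14*, of cytokinesis, was at 9.34, 8.46 and 13.8 in NT and at 3.03, 5.05 and 2.27 in KO libraries. For both genes and for *Kif20a* every KO library was below every control. In a fit with no filter the adjusted p values were 0.0678 for *Kif18b*, 0.237 for *Kif14* and 0.392 for *Kif20a*, so that no difference was called at this depth. *Kif2c* was at most 5.64.

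**Figure D2:**
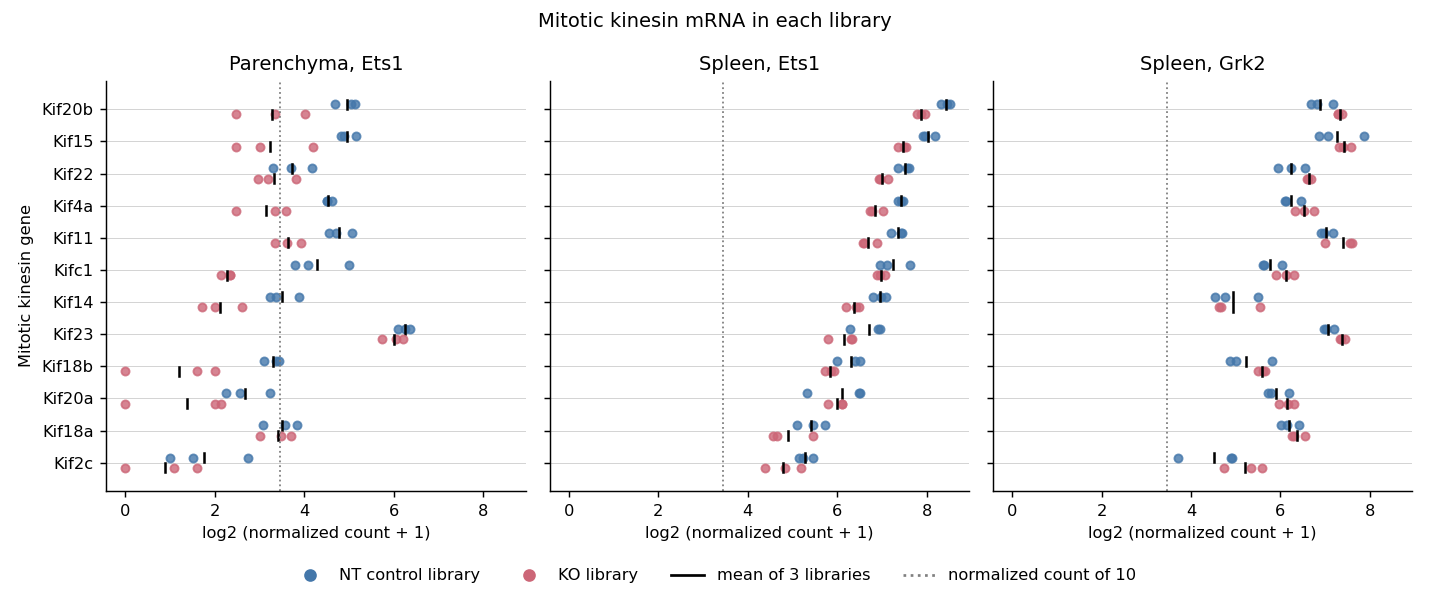
Normalized counts of the 12 mitotic kinesins in every library on a log2(normalized count + 1) axis, in 3 panels for the 3 tables. Points are libraries, black ticks are the means of 3 libraries, and the dotted line marks 10 normalized counts. In the parenchyma most genes lie near the dotted line and the *Ets1*-KO points of *Kif15*, *Kif20b*, *Kif4a*, *Kif11* and *Kifc1* lie left of all controls, whereas in the spleen all 12 genes lie to the right of the line.

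Among the transport kinesins of the parenchyma only *Kif3a* passed. It pairs with *Kif3b* in heterotrimeric kinesin-2, which drives transport in cilia and of other cargo. Its counts were 194, 185 and 211 in NT and 302, 260 and 270 in *Ets1*-KO libraries. The groups did not overlap, and the log2 fold change was 0.49 (SE 0.11, limma adjusted p = 0.000347). It was the only kinesin called higher, where 2.27% of all genes were, and it passed under every alternative but the fit without the variance trend, with adjusted p values up to 0.0497.

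Its partner subunits did not pass. *Kif3b* had 137, 161 and 153 in NT and 174, 154 and 129 in *Ets1*-KO libraries, with a log2 fold change of 0.01 (SE 0.12, limma adjusted p = 0.984). *Kifap3*, the adaptor subunit of kinesin-2, had a log2 fold change of −0.02 (SE 0.28). The groups of both overlapped.

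*Kif5b*, the heavy chain of conventional kinesin in most cell types, had 417, 410 and 408 in NT and 421, 431 and 426 in *Ets1*-KO libraries. Its groups lay apart by a few counts, and its log2 fold change was 0.05 (SE 0.09). *Kif1c*, a carrier of vesicles and endosomes, had 95.3, 75.2 and 75.7 in NT and 100, 109 and 94.1 in KO libraries, with a log2 fold change of 0.30 (SE 0.15, limma adjusted p = 0.276). *Kif1b*, of the same family, had 120, 110 and 144 in NT and 131, 119 and 99.7 in KO libraries. None of these 3 genes passed.

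*Kif13a*, a motor of endosomes, had 19.6, 13.2 and 12.8 in NT and 7.08, 9.1 and 6.8 in *Ets1*-KO libraries. Its groups did not overlap, but its log2 fold change of −0.89 had a standard error of 0.40 and an adjusted p of 0.2 from limma. *Kif13b* had 48.6, 55.5 and 75.7 in NT and 71.8, 66.7 and 63.5 in KO libraries, and *Kif16b*, which moves early endosomes, had 46.7, 27.3 and 51.1 in NT and 42.5, 35.4 and 34 in KO libraries. Both overlapped between the groups. The groups lay apart with KO higher in *Kif3a* and *Kif5b*, 2 of the 8 transport kinesins tested, beside 7.87% of all genes. Over these 8 the median log2 fold change was 0.03, the range was from −0.89 to 0.49, and 5 were positive and 3 negative.

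Of the 14 other kinesins 3 were tested. *Kif21b*, which slows microtubule growth and is known from the T cell immune synapse, had 108, 135 and 143 in NT and 97, 99.1 and 94.1 in *Ets1*-KO libraries. All KO libraries were below all controls, and the log2 fold change was −0.40 (SE 0.14, limma adjusted p = 0.0635), which passed only with a minimum of 50 counts (adjusted p = 0.0471). *Kif2a*, a microtubule depolymerase, and *Kif19*, a kinesin of cilia, had log2 fold changes of −0.10 and −0.34. *Kif7*, a ciliary kinesin of Hedgehog signalling, was below the minimum, at 0.934, 0.94 and 2.95 in NT and 10.1, 7.08 and 4.53 in KO libraries, with an adjusted p of 0.2 in the fit with no filter.

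**Figure D3:**
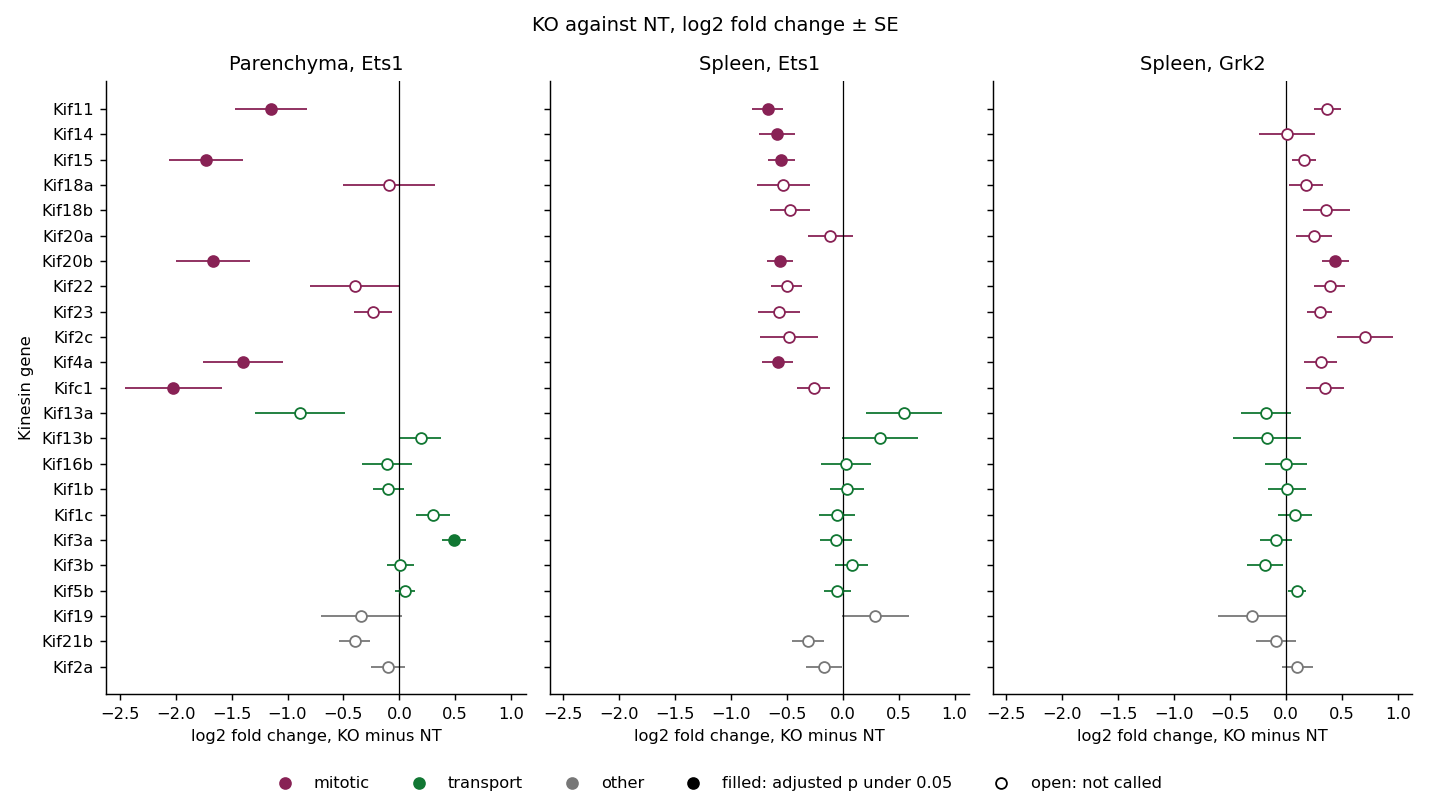
Log2 fold change of KO against NT for each kinesin tested, with error bars of 1 standard error from limma, in the 3 tables. Filled points have an adjusted p under 0.05, and colours separate mitotic, transport and other kinesins. The *Ets1*-KO mitotic kinesins lie at or below −0.09 in the parenchyma and at or below −0.11 in the spleen, the *Grk2*-KO ones at or above 0.01, and the transport kinesins lie on both sides of 0.

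In the spleen, all 12 mitotic kinesins passed the count minimum, and *Ets1*-KO cells had less mRNA of *Kif11*, *Kif14*, *Kif15*, *Kif20b* and *Kif4a*. The 5 falls were between 0.55 and 0.67 on the log2 scale. By limma 0 of 8 transport kinesins passed, with 0 at an unadjusted p under 0.05, and 0 of 3 others, with 1 at an unadjusted p under 0.05. With edgeR and DESeq2 0 of these genes passed as well.

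*Kif11* had 174, 146 and 172 in NT and 95.2, 96.1 and 117 in *Ets1*-KO libraries, with a log2 fold change of −0.67 (SE 0.14, limma adjusted p = 0.0115). *Kif20b* had 349, 321 and 367 in NT and 218, 234 and 249 in KO libraries, with −0.56 (SE 0.12, adjusted p = 0.0103). In both genes the groups lay far apart for their spread. Both also passed in limma with no replicate block, with adjusted p values of 0.0384 for *Kif11* and 0.0344 for *Kif20b*. With DESeq2 *Kif20b* passed (0.0397) and *Kif11* did not (0.0749).

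*Kif15* had 289, 242 and 248 in NT and 185, 164 and 180 in KO libraries, with a log2 fold change of −0.55 (SE 0.12, limma adjusted p = 0.0173). *Kif4a* had 172, 163 and 177 in NT and 105, 109 and 129 in KO libraries, with −0.58 (SE 0.14, adjusted p = 0.0272). *Kif14*, on chromosome 13 from 53351716 to 53420111 in Rnor_6.0, had 126, 111 and 136 in NT and 72.6, 85 and 89.3 in KO libraries, with −0.59 (SE 0.16, adjusted p = 0.0451). None of the 3 overlapped between the groups. In limma with no replicate block they did not pass, with adjusted p values of 0.0523, 0.0659 and 0.094 in this order, whereas in edgeR with no replicate block *Kif15* (0.0318) and *Kif4a* (0.0486) passed and *Kif14* (0.0789) did not. With DESeq2 none of the 3 passed, with adjusted p values of 0.0855, 0.148 and 0.247.

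Thus 5 of 12 mitotic kinesins were called lower, beside 1.2% of all 6979 genes tested. The count was 6 with edgeR, beside 123 of all 6979 genes called lower, and 1 with DESeq2, beside 27. The groups lay apart in 7 of the 12, the called genes and *Kif22* and *Kif18b*, beside 8.88% of all genes in that direction. The median log2 fold change of the 12 was −0.54, beside 0.00 over all genes, and all 12 were negative, from −0.67 to −0.11. Without replicate 3, and so without the library that stood apart, 6 mitotic kinesins passed, beside 113 of 6966 genes called lower. *Kif22* and *Kif23* joined them with adjusted p values of 0.0308 and 0.00106, and *Kif14* dropped out at 0.0555. Without replicate 1 none passed, with adjusted p values from 0.505 to 0.63 for the 5 called genes, in a fit that called 3 genes in all.

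*Kif22*, the chromosome arm motor, had 189, 194 and 163 in NT and 139, 124 and 122 in *Ets1*-KO libraries, and its log2 fold change of −0.50 (SE 0.14) had an adjusted p of 0.055 from limma. It passed with edgeR (0.0313), with a pseudocount of 5 (0.0468) and with a minimum of 50 counts (0.0405). *Kifc1*, with 197, 124 and 138 in NT and 133, 117 and 124 in KO libraries, overlapped between the groups, with −0.26 (SE 0.15, adjusted p = 0.43). *Kif20a*, a midzone motor of cytokinesis, was nearest to 0, at −0.11 (SE 0.20), and the control of replicate 3, at 39.2, was below all KO libraries. *Kif23*, *Kif18a*, *Kif18b* and *Kif2c* had between −0.57 and −0.47 and adjusted p values from 0.134 to 0.426.

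The transport kinesins of the spleen overlapped between *Ets1*-KO and NT cells in all genes tested but *Kif13a*, where KO was higher, and 8.04% of all genes tested lay apart in that direction. *Kif3a*, the gene called in the parenchyma, had 135, 122 and 168 in NT and 147, 118 and 139 in KO libraries, with a log2 fold change of −0.06 (SE 0.14). *Kif5b* had 688, 578 and 813 in NT and 662, 716 and 611 in KO libraries, and *Kif3b* had 117, 126 and 97.2 in NT and 123, 110 and 124 in KO libraries. In each of these 3 genes the values of both groups lay among each other.

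*Kif1b* had 116, 105 and 138 in NT and 131, 105 and 132 in *Ets1*-KO spleen libraries, and *Kif1c* had 99.5, 110 and 90.9 in NT and 107, 85.6 and 97.4 in KO libraries. *Kif16b* had 41.6, 42 and 64.2 in NT and 36.3, 60.8 and 53.7 in KO libraries. *Kif13b* had 8.75, 28 and 23.5 in NT and 24.7, 21.1 and 23.1 in KO libraries, where the first control stood low. *Kif13a*, at 9.84, 17.2 and 17.2 in NT and 22.6, 21.7 and 20 in KO libraries, was higher in all KO libraries here, with a log2 fold change of 0.55 (SE 0.34, limma adjusted p = 0.491). The median over the 8 tested was 0.04.

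The effect of *Ets1* editing was then compared between the tissues as log2 ratios of *Ets1*-KO to NT libraries of the same number, 3 ratios per tissue, because the tables were scaled separately. Of the 19 kinesins that passed the minimum in both tables, *Kifc1*, *Kif15* and *Kif20b* differed, each with the more negative ratio in the parenchyma. Of all 6520 genes, 1.43% were called in that direction. The parenchyma KO means of these genes were 3.83, 9.6 and 9.6, so they reached the minimum there through their control libraries. Their number is a description of the genes that passed.

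The ratios of *Kifc1* were −1.74, −2.67 and −1.65 in the parenchyma and −0.56, −0.08 and −0.15 in the spleen, without overlap. The difference was −1.76 (SE 0.35, limma adjusted p = 0.0031). For *Kif20b* they were −1.70, −1.11 and −2.21 in the parenchyma and −0.68, −0.45 and −0.56 in the spleen, a difference of −1.11 (SE 0.26, adjusted p = 0.0165). For *Kif15* they were −2.14, −0.64 and −2.41 in the parenchyma and −0.64, −0.56 and −0.45 in the spleen, a difference of −1.18 (SE 0.32, adjusted p = 0.0375).

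The second parenchyma ratio of *Kif15* equalled the first spleen ratio to 2 decimals, and the call was lost without replicate 1 (adjusted p = 0.335) and without replicate 3 (0.27). *Kif20b* was lost in the same fits, with adjusted p values of 0.125 and 0.13. Both genes also missed the threshold with a pseudocount of 5 (0.0967 for *Kif15* and 0.0698 for *Kif20b*), and *Kif15* missed it with quantile normalization (0.0844). *Kifc1* kept its call in every fit with the trend that could test it. Without the trend the limma adjusted p values of the difference were 0.175 for *Kifc1*, 0.36 for *Kif15* and 0.267 for *Kif20b*. *Kif4a* differed by −0.82 (SE 0.32, adjusted p = 0.194) and *Kif11* by −0.48 (SE 0.30, adjusted p = 0.501), and neither passed. *Kif18a*, *Kif22* and *Kif23* had differences above 0, of 0.45, 0.09 and 0.33, with adjusted p values of at least 0.621. *Kif3a* differed by 0.55 (SE 0.17, adjusted p = 0.096) and also missed the threshold.

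**Figure D4:**
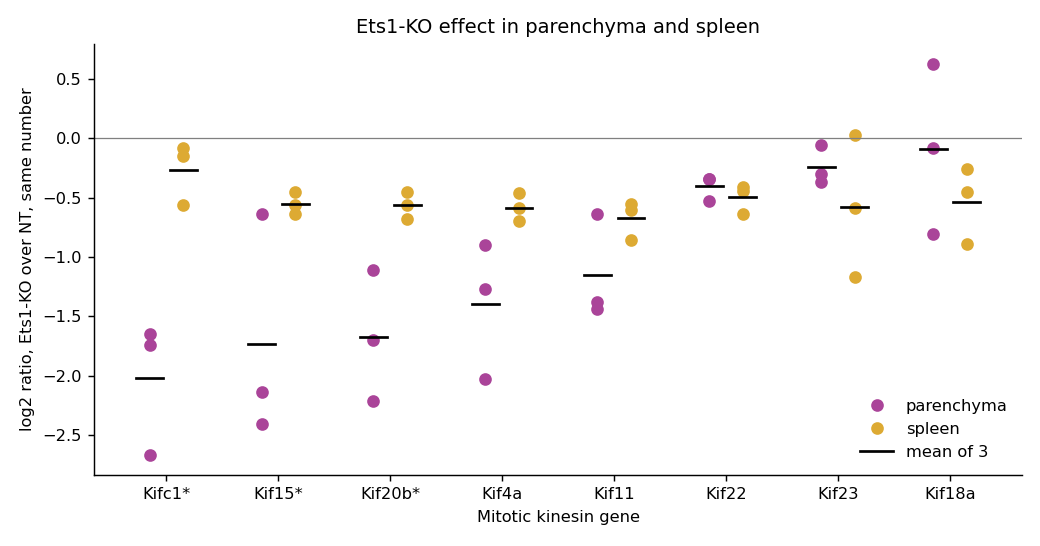
Log2 ratios of *Ets1*-KO to NT libraries of the same replicate number for the 8 mitotic kinesins tested in both tissues. Each point is 1 ratio, black lines are means of 3, and an asterisk marks a tissue difference that passed at an adjusted p under 0.05. Parenchyma ratios of *Kifc1* lie at or below −1.65 and its spleen ratios at or above −0.56, whereas for *Kif23* and *Kif18a* the parenchyma mean lies above that of the spleen.

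Between the parenchyma and spleen libraries of the *Ets1* comparisons, the share that came from mitotic kinesins differed more than between genotypes. In CPM, the share of a library's counts on genes scaled to a common total, the 12 mitotic kinesins summed to 179, 191 and 168 in NT and 98, 112 and 73.8 in *Ets1*-KO parenchyma libraries. In the spleen they summed to 1412, 1295 and 1184 in NT and 919, 883 and 908 in *Ets1*-KO libraries. The KO sums were below all control sums in both tissues, and all spleen sums were above all parenchyma sums. The control cells set beside *Grk2*-KO cells, also from the spleen, summed to 920, 684 and 638. These sums lay below all spleen controls of the *Ets1* comparison, so levels also differed between control sets of the same tissue. No test was made across the tables, since tissue and table cannot be told apart.

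The 15 transport kinesins summed to 778, 720 and 806 CPM in NT and 903, 837 and 802 in *Ets1*-KO parenchyma libraries, and to 917, 875 and 1005 in NT and 965, 959 and 859 in *Ets1*-KO spleen libraries. These sums overlapped between genotypes in both tissues. The ratio of the NT mean in the spleen, from the control cells set beside *Ets1*-KO cells, to the NT mean in the parenchyma had a median of 8.16 over the 8 mitotic kinesins tested in all 3 tables, and of 1.02 over 8 transport kinesins. With the control cells set beside *Grk2*-KO cells these medians were 4.8 and 0.76.

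Single mitotic genes covered a wide range of this ratio. It was 15.3 for *Kif22*, 12.2 for *Kif20b* and 1.53 for *Kif23*, from the first set of spleen controls, and 6.57, 4.33 and 1.95 from the second. *Kif23* had the lowest ratio of the 8 mitotic kinesins with either set. Among the transport kinesins it lay between 0.355 for *Kif13b* and 1.78 for *Kif5b* with the first set. These ratios are descriptions of control levels within each gene and carry no test.

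**Figure D5:**
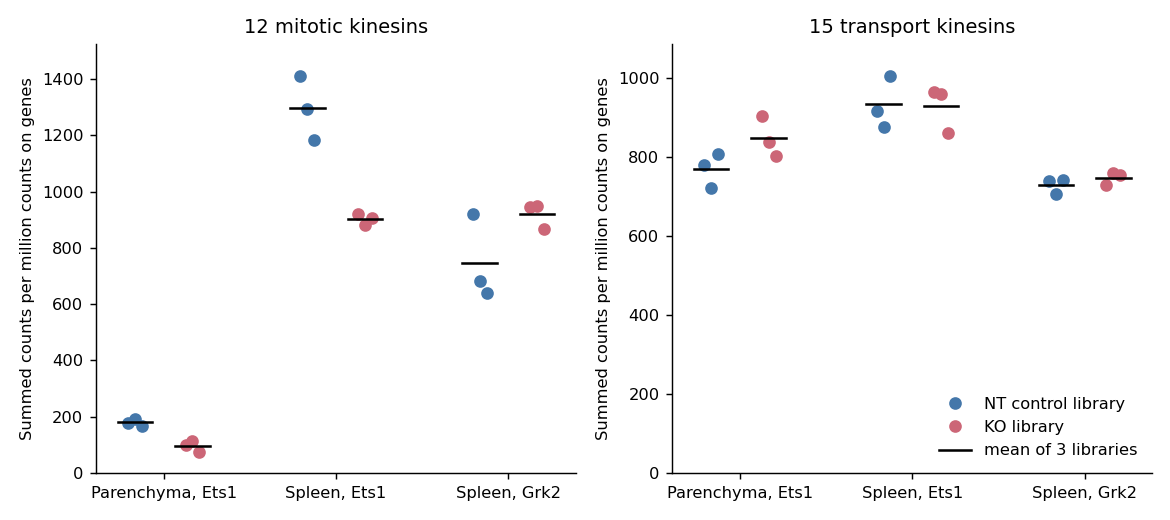
Summed CPM of counts on genes for the 12 mitotic (left) and 15 transport kinesins (right) in each library, with black lines at the mean of 3 libraries. Mitotic sums are at most 191 in the parenchyma and at least 638 in the spleen, and transport sums lie between 705 and 1005 in all libraries.

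In *Grk2*-KO cells from the spleen, *Kif20b* was the only kinesin called, and it was higher. Its counts were 144, 111 and 101 in NT and 156, 156 and 166 in *Grk2*-KO libraries. The groups did not overlap, and the log2 fold change was 0.44 (SE 0.12, limma adjusted p = 0.0266). The call did not hold with no replicate block (adjusted p = 0.237), with edgeR (0.0541) or with DESeq2 (0.999), nor without replicate 2 (0.551) or replicate 3 (0.525).

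Thus 1 of 12 mitotic kinesins was called higher, beside 0.931% of all 6985 genes tested. *Kif20b*, *Kif22* and *Kif23* had groups that lay apart in that direction, against 7.59% of all genes. The median log2 fold change of the 12 was 0.33, beside 0.02 over all genes, with all 12 above 0. *Kif11* had 144, 118 and 125 in NT and 188, 193 and 127 in *Grk2*-KO libraries, with 0.37 (SE 0.12, limma adjusted p = 0.0816), and passed only without replicate 3 (0.0136), which left out the KO library closest to the controls.

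*Kif23* had 125, 146 and 129 in NT and 159, 172 and 162 in *Grk2*-KO libraries, with a log2 fold change of 0.30 (SE 0.11, limma adjusted p = 0.217). *Kif22* had 92.1, 61 and 73.9 in NT and 95.2, 97.3 and 102 in KO libraries, with 0.39 (SE 0.14, adjusted p = 0.207). *Kif15*, *Kif4a*, *Kifc1* and *Kif14* had log2 fold changes of 0.16, 0.31, 0.35 and 0.01. *Kif15* had 234, 133 and 116 in NT and 190, 168 and 158 in KO libraries, where the first control was the highest value. *Kif4a* had 86.7, 68.7 and 67.8 in NT and 79.5, 107 and 91 in KO libraries, *Kifc1* had 65, 48.8 and 47.6 in NT and 77.7, 59 and 69.1 in KO libraries, and *Kif14* had 44.4, 22.2 and 26.3 in NT and 24.5, 45.6 and 23.6 in KO libraries. In these 4 genes the groups overlapped. The 12 genes summed to 920, 684 and 638 CPM in NT and 945, 949 and 866 in KO libraries, again with overlap.

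By limma 0 of 8 transport kinesins passed in the *Grk2* comparison, with 0 at an unadjusted p under 0.05 and 0 by edgeR or DESeq2, and the groups overlapped in all 8 tested. *Kif5b* had 570, 479 and 538 in NT and 605, 567 and 531 in *Grk2*-KO libraries. *Kif3a* had 77, 87.6 and 117 in NT and 74.2, 98.4 and 90 in KO libraries. *Kif3b* had 72.6, 70.9 and 82 in NT and 59.4, 60.1 and 80 in KO libraries, with −0.19, the lowest log2 fold change of the class. *Kif1b* (62.9, 66.5 and 53.6 in NT, 47.2, 71.5 and 67.3 in KO) and *Kif1c* (66.1, 82 and 71.8 in NT, 64.6, 79.7 and 90 in KO) had 0.01 and 0.08.

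The transport motors *Kif13a*, *Kif13b* and *Kif16b* also overlapped between the groups. *Kif13a* had 27.1, 53.2 and 36.4 in NT and 23.6, 43.5 and 34.6 in *Grk2*-KO libraries. *Kif13b* had 23.8, 17.7 and 18.2 in NT and 14.8, 13.5 and 26.4 in KO libraries. *Kif16b* had 35.8, 51 and 59.7 in NT and 41.9, 48.7 and 53.7 in KO libraries. Their log2 fold changes were −0.18, −0.17 and 0.00, with standard errors of up to 0.30.

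Over the 3 comparisons 19 kinesins were tested in every table and 18 in none. Of those 18, 7 were at 0 in all 18 libraries and the highest mean over 6 libraries was 5.38. Differences in these genes could not be detected at such depth. The other 4, *Kif14*, *Kif18b*, *Kif20a* and *Kif2c*, were tested in the spleen tables only.

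The genes that work with the mitotic kinesins were counted from a list of 27 spindle, kinetochore and cytokinesis genes, 26 of which were listed. In the parenchyma 12 were tested and 8 were called lower, beside 2.96% of all genes. None was called higher, and the median log2 fold change was −1.01. The smallest adjusted p values belonged to *Top2a*, which untangles chromosomes (−1.16), the proliferation marker *Mki67* (−1.15), the kinetochore kinesin *Cenpe* (−1.65) and the kinetochore protein *Cenpf*, with limma adjusted p values of up to 6.11e-08. In the spleen 25 were tested and 15 called lower in *Ets1*-KO cells, beside 1.2% of all genes. None was called higher, and the median was −0.58. These are calls by limma, and edgeR called 15 and DESeq2 10 of the 25. Over all 6979 genes edgeR called 238 and DESeq2 50, in either direction. In *Grk2*-KO cells 24 were tested and 6 called higher by limma, beside 0.931% of all genes. None was called lower, and the median was 0.33. With edgeR 4 of the 24 were called and with DESeq2 0, where 6 had an unadjusted p under 0.05. Over all 6985 genes edgeR called 90 and DESeq2 9, with 131 at an unadjusted p under 0.05 by DESeq2. *Aurka*, a spindle pole kinase, was the member above 0 in the parenchyma (0.25), and *Mad2l1*, of the spindle checkpoint, the member below 0 in the *Grk2* table (−0.34), and neither passed.

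The 23 genes of transport partners, which include kinesin light chains, cargo adaptors, dynein and dynactin, had 0 calls by limma in each table. At an unadjusted p under 0.05 there were 0 in the parenchyma and 1 in each spleen table, and edgeR and DESeq2 called 0 in the spleen. There were 20 tested in the parenchyma, 21 in spleen *Ets1* cells and 18 in spleen *Grk2* cells, and the median log2 fold changes were 0.02, −0.04 and 0.04. *Klc1*, a kinesin light chain, was below all controls in *Ets1*-KO libraries of both tissues, with −0.28 in each and adjusted p values of 0.352 and 0.434 from limma. The groups lay apart with KO lower in 2 partners in the parenchyma and 3 in the spleen, beside 10.5% and 8.88% of all genes. In the spleen *Kifap3* (0.43) and *Dctn2* (0.34) were above all controls in all *Ets1*-KO libraries, beside 8.04% of all genes. Neither passed. For these groups of genes the same background shares apply as for the kinesins of the same comparison.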

How the data were processed

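RNA of 18 libraries was sequenced from 3′ ends. According to the methods, the authors aligned reads to Rnor_6.0 with STAR (version 2.7.2b), counted them per gene with HTSeq (1.0.0) and scaled them with DESeq2 size factors (poscounts). The signal values deposited by the authors are these normalized counts, in 3 tables scaled separately. The deposited tables of the authors' own comparisons hold fold changes and p values and were not used, nor were 8 columns of human values. Of the listed rows, 388 have no gene name.

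Genes whose normalized counts averaged at least 10 were tested with limma (3.58.1 in R 4.3.3; lmFit, eBayes with a trend) on log2(normalized count + 1), with the replicate number as a block, two-sided, with Benjamini-Hochberg adjustment over all genes tested and a threshold of 0.05. The block follows the authors' correction per animal. Tissues were compared as log2 ratios. Spleen values were multiples of 1 step per library (tolerance 0.01; 100% of values whole), from which reads were recovered, and edgeR (4.0.16) and DESeq2 (1.42.0) were run on the spleen reads as alternatives, beside other pseudocounts, filters, scalings and left-out replicates. An exact permutation test of 3 against 3 libraries cannot go below p = 0.1. The fits were tested on simulated data. Every kinesin was described, with values per library for those called in a table and for transport kinesins tested in all tables, and further genes were named from lists of partners by smallest adjusted p. Values of *Kif22*, *Kif23*, *Kif18b*, *Kif7*, *Kif21b*, *Kif3a*'s partner *Kifap3*, *Klc1*, *Dctn2*, *Aurka* and *Mad2l1* were singled out after they were seen. Kinesins, lists and motifs were chosen with earlier results of these data known. Promoter sequences were taken from RefSeq (GRCr8) by symbol.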

Additional observations from a re-analysis of the deposited data

Results flagged for a closer look

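With 3 libraries per group, single libraries were not tested as outliers. The effect of *Ets1* editing differed between parenchyma and spleen for 3 kinesins of the rule, by the test on log2 ratios. The difference, parenchyma minus spleen, was −1.76 for *Kifc1*, −1.18 for *Kif15* and −1.11 for *Kif20b* on the log2 scale. *Cenpe*, the kinetochore kinesin among the partner genes, differed by −1.12 (standard error 0.20, adjusted p = 0.00108 from limma), with ratios of −2.07, −1.24 and −1.63 in the parenchyma and −0.70, −0.46 and −0.41 in the spleen. All 4 genes were lower in *Ets1*-KO libraries of every replicate number in both tissues. In the spleen, however, the groups of *Kifc1* overlapped and it did not pass (log2 fold change −0.26, limma adjusted p = 0.43). Without the variance trend none of *Kifc1*, *Kif15* and *Kif20b* passed the test of the difference. That fit called 2 of all 6520 genes. Alternative fits of *Cenpe* are not reported here, so whether its call holds in them is not known.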

How the results depend on the processing

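All called kinesins kept the sign of their change under every alternative that could be fitted. The number of genes called in the parenchyma (366) was 200 with no replicate block, 212 with no filter, 3 without the variance trend (893 at an unadjusted p under 0.05), and 163 to 277 with a replicate left out. In the *Ets1* spleen table (155) it was 71 with no replicate block, 242 with no filter, 238 with edgeR, 50 with DESeq2, 0 without the trend (limma, 785 unadjusted), and 3 to 232 with a replicate left out. In the *Grk2* table (109) it was 19 with no replicate block, 60 with a minimum of 50, 9 with DESeq2, 19 with edgeR and no block (an alternative chosen after seeing the data), 0 without the trend (limma, 571 unadjusted), and 6 to 50 with a replicate left out. For the tissue difference (137) it was 2 without the trend and 28 to 112 with a replicate left out. Scaling moved the split of higher to lower calls. It was 159 to 207 in the parenchyma, against 146 to 131 with quantile normalization and 179 to 173 with upper quartile scaling. It was 71 to 84 in the *Ets1* spleen table, against 109 to 83 with upper quartile scaling. It was 65 to 44 in the *Grk2* table, against 34 to 41 with quantile normalization, 37 to 44 with upper quartile scaling and 43 to 47 with edgeR.

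Of mitotic kinesins, the 5 called in the parenchyma became 0 with a minimum of 50, where only *Kif23* could be tested, 0 without the trend, 4 with no filter, and 3 to 4 with a replicate left out. The 5 called in the *Ets1* spleen table became 2 in limma with no replicate block, 4 in edgeR with no replicate block, 1 with DESeq2 (*Kif20b*), 0 without the trend, and 0 to 6 with a replicate left out. The 1 called in the *Grk2* table became 0 with no replicate block, a minimum of 50, upper quartile scaling or quantile normalization, edgeR with or without the block, DESeq2 and without the trend, and 0 to 1 with a replicate left out, where without replicate 3 the gene was *Kif11*. Where no cause is given, the cause was not tested.

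Same-numbered libraries correlated in their deviations by between −0.003 and 0.175. Most of these values were above 0 and all were small, so the data do not settle whether numbers pair the libraries. Calls lost without the block are given beside the results. The count tools edgeR and DESeq2 were not run in the parenchyma, although its values were whole multiples of 1 step per library. A check of units did not accept the step of 1.011 in 2 of its KO libraries as 1 read. A control library of the *Grk2* set with a step of 1.012 was accepted. Library totals and CPM of the parenchyma still used the whole multiples. The parenchyma calls were thus not checked with a count tool.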
